A study of Mus musculus with 4 samples.

Results

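The endothelial marker genes followed here are 7 genes of the inner lining of blood vessels, read in libraries of sorted tumour cells: Vwf, Pecam1, Cdh5, Cldn5, Kdr, Egfl7 and Eng. They were chosen by symbol, and 6 of the 7 are among the 17746 gene symbols of the authors' table. Cdh5, the gene of the endothelial cadherin, is not among the symbols of that table and was not analysed here. All 6 genes found passed the filter on low counts and were tested together with 16301 genes in all. RNA was sequenced from lung tumours of Rb1fl/fl; Trp53fl/fl mice, a mouse model of small cell lung cancer, which also carried the GFP-LC3-RFP-LC3ΔG knock-in reporter of autophagy. Living cells that bore EpCAM, a surface protein of epithelia, and RFP were sorted into GFP-negative cells (2 libraries) and GFP-positive cells (2 libraries). All 4 libraries thus share the tumour genotype, the reporter and the EpCAM and RFP gates, and the groups were sorted apart by GFP. How the floxed genes were deleted, the ages of the mice and whether each library of a group is a different animal are not stated in the labels, so the p-values measure only the spread between these libraries, which may be technical. Sample titles and the design text disagree on which group has the higher autophagic flux, so the groups are called by GFP alone.

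Endothelial cells form the inner wall of blood and lymph vessels, and the lung holds one of the densest capillary beds of the body. They secrete von Willebrand factor for platelet capture, hold together through claudin 5, VE-cadherin and PECAM1, and sense growth signals through the VEGF receptor KDR and the BMP and TGF-beta co-receptor endoglin. Endothelial cells are not an EpCAM-positive cell type, so a sort on EpCAM is aimed at epithelial tumour cells. Several of the genes are also made outside the endothelium: Vwf and Pecam1 in megakaryocytes and platelets, and Pecam1 and Eng in monocytes and macrophages.

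The libraries held 51994432 to 73997175 counts. GFP-positive replicate 1 stood apart, with counts for 34.2% of the symbols, against 99.3% and 88.5% in the GFP-negative libraries and 92.3% in GFP-positive replicate 2. Levels below are CPM, counts normalised to library sizes scaled by TMM (trimmed mean of M-values), and the first value of a pair is replicate 1. At 0 counts, the limit of 3 counts corresponds to 0.026 and 0.045 CPM in the GFP-negative and to 0.080 and 0.047 CPM in the GFP-positive libraries, for counting error only. Epcam, the gene of the sorted surface protein, had 255 and 88.9 CPM in the GFP-negative libraries, against 94.0 and 65.9 CPM in the GFP-positive libraries. The 8 epithelial markers, Epcam included, summed to 3079 and 838 CPM in the GFP-negative libraries, against 1328 and 483 CPM in the GFP-positive libraries. In GFP-positive replicate 1 the keratin genes Krt8 (539.8 CPM) and Krt18 (369 CPM) made most of that sum, while Cdh1 and Cldn3 rested on 4 counts each and Cldn4 on 22. Fewer cells of a type and less RNA per cell cannot be told apart in such bulk libraries.

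The 6 endothelial genes did not move as a block. Each library but one was the highest for exactly 1 of them: Vwf in GFP-negative replicate 1, Pecam1 in GFP-positive replicate 1 and Eng in GFP-positive replicate 2, while Cldn5, Kdr and Egfl7 were highest in GFP-negative replicate 2. Of all tested genes, 36.3% and 26.8% were highest in GFP-negative replicates 1 and 2, and 14.6% and 22.3% in GFP-positive replicates 1 and 2. The 6 endothelial genes are too few to set apart from these shares. Only Vwf and Kdr had groups that did not overlap, both with the GFP-negative libraries above, against 25.2% of all tested genes with that order and 6.63% with the reverse order. In the quasi-likelihood test of edgeR, adjusted by Benjamini-Hochberg over all genes, 0 of the 6 were called, against 0.0982% of all tested genes. At an unadjusted p under 0.05 there was 1, Vwf, beside 2.34% of all tested genes on the higher side. The fitted log2 change (GFP-negative minus GFP-positive) was above 0 for 4 of the 6 and below 0 for 2, with a median of 1.60, beside 0.91 over all tested genes. Setting genes at 0 counts in a whole group to their bound moved neither this median nor that of any other list below.

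**Figure D1:**
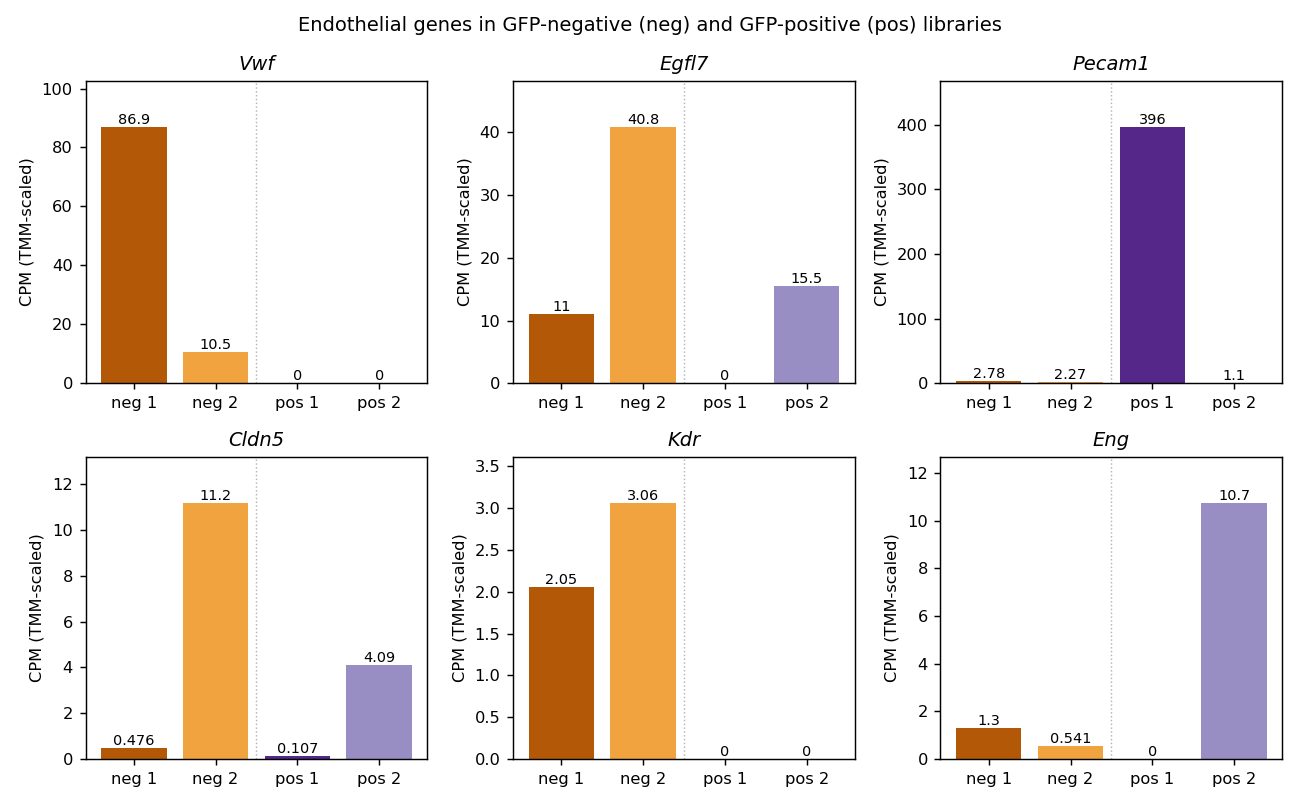
Bars show the TMM-scaled CPM of each endothelial gene in the 2 GFP-negative (neg) and the 2 GFP-positive (pos) libraries, each gene on its own linear axis, with 1 library per bar and no error bar. Vwf and Kdr have bars only on the GFP-negative side, Pecam1 stands at 396 CPM in GFP-positive replicate 1, and Eng is highest in GFP-positive replicate 2.

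Among the secreted products, Vwf encodes von Willebrand factor, the large multimer that is stored in endothelial granules and tethers platelets to injured vessel walls. The gene (ENSMUSG00000001930.17) lies on chromosome 6 of mm10 from 125546774 to 125686679 on the plus strand, with 52 exons in its longest annotated transcript. Vwf had 9862 and 697 counts in the GFP-negative libraries, against 0 counts in both GFP-positive libraries. In CPM this was 86.9 and 10.5 in the GFP-negative libraries. Both GFP-negative libraries thus lay above both GFP-positive ones, but they differed 8.30-fold from each other, where the median gene with counts in both differed 2.76-fold and 17.5% of genes differed over 8-fold. Set against 3 counts in each GFP-positive library, the GFP-negative mean of 48.7 CPM was 767-fold higher. That figure allows for counting error only and is no lower bound, as only 34.2% of symbols had counts in GFP-positive replicate 1. The edgeR test did not call Vwf (unadjusted p = 0.0373, edgeR adjusted p = 1.0). DESeq2's Wald test did (DESeq2 adjusted p = 0.016), as 1 of the 63 genes, or 0.386% of those tested, that it called. Over all the alternatives tried for Vwf, the adjusted p ran from 0.011 to 1.0; the lowest came from the edgeR fit without GFP-positive replicate 2, which called 45.2% of all genes.

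Egfl7 encodes a secreted protein of the vessel matrix that acts in the shaping of endothelial tubes, and the gene also hosts the microRNA miR-126. It lies on chromosome 2 of mm10 from 26580014 to 26593120 (ENSMUSG00000026921.18). Its CPM was 10.98 and 40.8 in the GFP-negative libraries, against 0 and 15.5 in the GFP-positive libraries. The groups overlapped, since GFP-positive replicate 2 lay between the GFP-negative libraries. The log2 change was 1.74 ± 4.42 (SE, n = 2 per group; adjusted p = 1.0 in edgeR). The annotated gene overlaps the annotated gene Gm20532 on its own strand and the end of Agpat2 on the other. Agpat2, an enzyme of lipid synthesis, had 4.95 and 14.9 CPM in the GFP-negative libraries, against 0 and 27.6 CPM in the GFP-positive libraries. Agpat2 begins at 26593057, and without strand marking reads from the shared end cannot be assigned between Egfl7 and Agpat2. Gm20532 begins at 26586639 and so spans a longer part of Egfl7, exons included. It lies on the same strand, so strand marking would not separate its reads, and it is not among the table's symbols. The Egfl7 count is uncertain by both overlaps.

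Among the adhesion genes, Pecam1 encodes PECAM1 or CD31, an immunoglobulin-fold protein of endothelial contacts, platelets and leukocytes. It lies on the minus strand of chromosome 11 of mm10 from 106654217 to 106750628 (ENSMUSG00000020717.19). Pecam1 had 315 and 151 counts in the GFP-negative libraries, against 14865 and 70 counts in the GFP-positive libraries. A single library, GFP-positive replicate 1, held 98.5% of the gene's CPM summed over the 4 libraries. The other 3 ran from 1.10 CPM in GFP-positive replicate 2 to 2.78 CPM in GFP-negative replicate 1, and so the groups overlapped. The 2 GFP-positive libraries differed 361-fold, where the median gene with counts in both differed 5.78-fold and 9.38% of genes differed over 300-fold. The log2 change of -6.30 ± 3.31 (SE, n = 2 per group; adjusted p = 1.0 in edgeR) turned to 1.19 without GFP-positive replicate 1. It was called in edgeR only without GFP-positive replicate 2, at -7.30 (edgeR adjusted p = 0.011), where Vwf and Egfl7 were called as well.

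Within 200 kb of Pecam1 on chromosome 11, 7 annotated genes reached 5 CPM in at least 1 library. Of these, 2 were highest in GFP-positive replicate 1, as were 14.6% of all tested genes. One was Milr1, an immunoglobulin-like receptor of mast cells, which starts at 106751226, next to Pecam1, and had 2.80 and 13.2 CPM in the GFP-negative libraries, against 270 and 49.4 CPM in the GFP-positive libraries. The other was the small nucleolar RNA gene Snord104, at 21.5 CPM there. Polg2, Tex2, Ern1 and Smurf2 had 0 counts in that library. The RNA helicase gene Ddx5 was high in all 4 libraries: it had 2321 and 367 CPM in the GFP-negative libraries, against 2082 and 995 CPM in the GFP-positive libraries.

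Cldn5 encodes claudin 5, the main tight junction claudin of endothelium. It is a gene of 1 exon on chromosome 16 of mm10 from 18776847 to 18778262 (ENSMUSG00000041378.2). Its CPM was 0.476 and 11.2 in the GFP-negative libraries, against 0.107 and 4.09 in the GFP-positive libraries. Replicate 2 was the higher library in both groups, and the groups overlapped. The log2 change was 1.47 ± 4.48 (SE, n = 2 per group; adjusted p = 1.0 in edgeR), and it was -2.15 without GFP-negative replicate 2 and -0.35 under upper quartile scaling. In GFP-positive replicate 1 the value rests on 4 counts.

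Among the receptors, Kdr encodes VEGFR2, the main signalling receptor for VEGF-A on blood vessels. It lies on the minus strand of chromosome 5 of mm10 from 75932827 to 75978458 (ENSMUSG00000062960.10). Kdr had 233 and 204 counts in the GFP-negative libraries, against 0 counts in both GFP-positive libraries. In CPM the GFP-negative libraries stood at 2.05 and 3.06, the closest agreement within that group for any of the 6 genes except Pecam1. The GFP-negative mean was 40.3-fold higher than 3 counts per GFP-positive library, which is no lower bound, as for Vwf. The edgeR test did not call Kdr (unadjusted p = 0.0604, edgeR adjusted p = 1.0). DESeq2's Wald test gave it an unadjusted p of 0.00246 but no adjusted p, so that test makes no call on Kdr either way. Counts in both GFP-negative libraries with 0 in both GFP-positive ones, the pattern of Vwf and Kdr, were found for 6.92% of the symbols in the table.

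Eng encodes endoglin, the co-receptor through which endothelial cells sense BMP9 and TGF-beta. It lies on chromosome 2 of mm10 from 32646595 to 32682669 (ENSMUSG00000026814.16). Its CPM was 1.30 and 0.541 in the GFP-negative libraries, against 0 and 10.7 in the GFP-positive libraries. GFP-positive replicate 2 held 85.3% of the summed CPM, while its partner had no counts, so the groups overlapped. The log2 change was -2.54 ± 4.56 (SE, n = 2 per group; adjusted p = 1.0 in edgeR). Its sign turned without GFP-positive replicate 2, where it was 9.07, and in 2 other fits. The end of Eng overlaps the end of Fpgs on the other strand, so reads there cannot be assigned without strand marking.

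**Figure D2:**
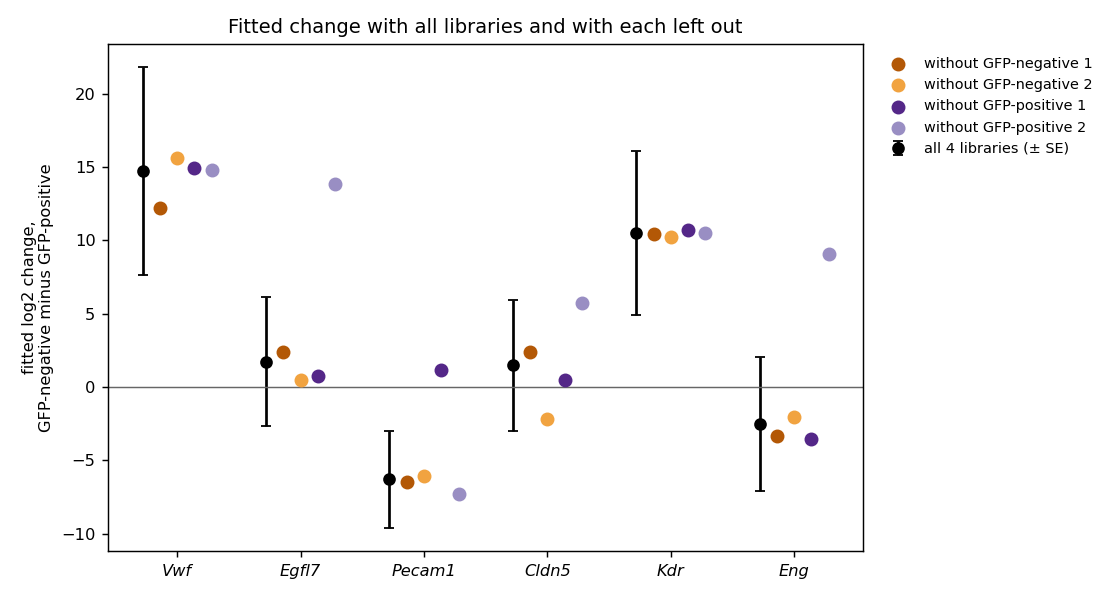
Points show the fitted log2 change (GFP-negative minus GFP-positive) of each endothelial gene with all 4 libraries (black, bars ± SE) and with each library left out in turn. Pecam1 stands above 0 only without GFP-positive replicate 1, Cldn5 below 0 only without GFP-negative replicate 2, and Eng above 0 only without GFP-positive replicate 2; values for Vwf and Kdr, at 0 counts in the GFP-positive group, depend on the prior count of the fit and are no measure of size.

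On the authors' FPKM scale, which divides by gene length, the order of the 6 genes differed from library to library. Counts, FPKM and summed library counts together imply 18230 bases for Vwf and 1609 bases for Cldn5 in GFP-negative replicate 1. Both values exceed the merged annotated exons, of 16064 and 1416 bases, so they are not the annotated lengths themselves. The Vwf value lies nearer to its merged exons than to its longest annotated transcript, of 8834 bases. Orders between genes depend on the length used. In GFP-negative replicate 1 the highest was Vwf at 7.31 FPKM, followed by Egfl7 at 4.12 FPKM, and the other 4 lay between 0.306 FPKM (Kdr) and 0.600 FPKM (Pecam1). In GFP-negative replicate 2 Egfl7 led at 9.44 FPKM and Cldn5 followed at 6.56 FPKM, with Vwf at 0.541 FPKM and the other 3 between 0.109 FPKM (Eng) and 0.299 FPKM (Pecam1). In GFP-positive replicate 1 Pecam1 stood alone at 41.1 FPKM, with Cldn5 at 0.046 FPKM and the other 4 listed at 0. Pecam1 lay above 90.8% of the symbols there, but only 34.2% of the symbols had counts in that library. In GFP-positive replicate 2 the order was Egfl7 at 3.49, Cldn5 at 2.34, Eng at 2.14 and Pecam1 at 0.141 FPKM, with Vwf and Kdr listed at 0. Egfl7 thus stood above Cldn5 in all 3 libraries in which Egfl7 had counts, whereas Vwf was above Egfl7 in 1 of the 2 libraries that held Vwf. Kdr, the only gene whose highest library changed with the scale, had 0.306 and 0.282 FPKM in the GFP-negative libraries. With 1 library per value, neighbours such as Cldn5 and Eng in GFP-positive replicate 2 cannot be separated by any measured spread.

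**Figure D3:**
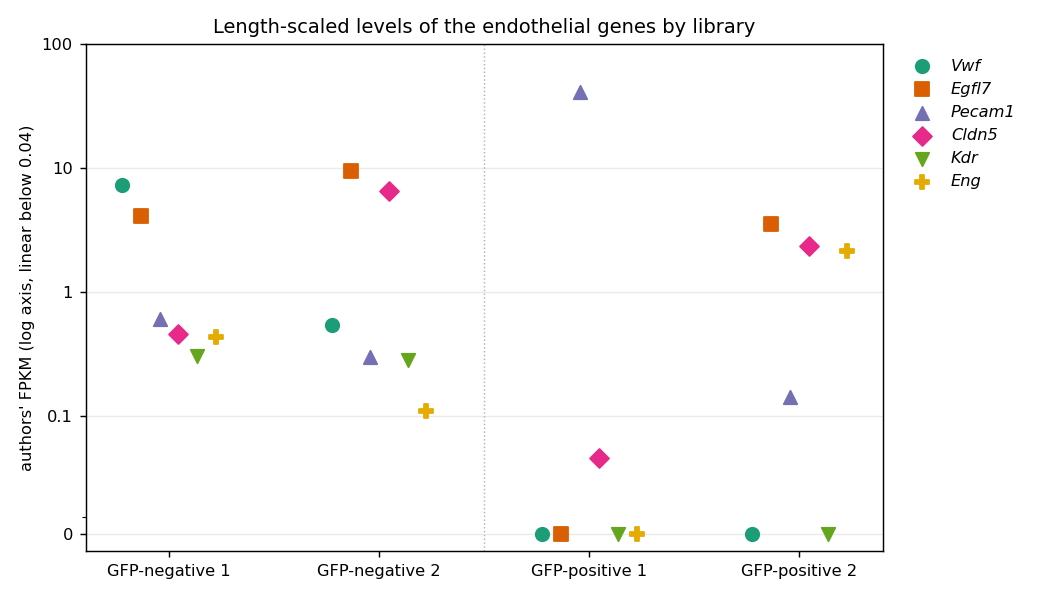
Each symbol shows the authors' FPKM of 1 endothelial gene in 1 library, on an axis that is logarithmic above 0.04 and linear below. The leading gene is Vwf in GFP-negative replicate 1, Egfl7 in GFP-negative replicate 2, Pecam1 in GFP-positive replicate 1 and Egfl7 in GFP-positive replicate 2.

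As a sum over the 6 genes, the level was 104 and 68.4 CPM in the GFP-negative libraries, against 396 and 31.5 CPM in the GFP-positive libraries. Pecam1 alone set the high value of GFP-positive replicate 1. Without Pecam1, which was left out after its values were seen, the sum of the other 5 was 102 and 66.1 CPM in the GFP-negative libraries, against 0.107 and 30.4 CPM in the GFP-positive libraries. All 6 genes had counts in both GFP-negative libraries, while 2 had counts in GFP-positive replicate 1 and 4 in GFP-positive replicate 2.

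Another 4 lists held 70 other endothelial genes, namely receptors, adhesion and surface proteins, transcription factors and regulators of clotting and vessel tone. Of these, 50 are in the table and 48 were tested. None was called in edgeR, DESeq2 or limma with all 4 libraries, 3 had an unadjusted p under 0.05, 23 had a fitted change above 0 and 25 below, and the median log2 change was -0.20 against 0.91 for all tested genes. The GFP-negative libraries lay above both GFP-positive ones for 20.8% of them and below for 8.33%, near the 25.2% and 6.63% of all genes. Among those outside it, the VEGF receptors Flt1 and Flt4, the angiopoietin receptors Tek and Tie1, Robo4, Ptprb and the transcription factors Erg, Tal1, Sox7 and Sox18 are not among its symbols and were not analysed here. Of the 50 in the table, 30 had 0 counts in GFP-positive replicate 1, where only 34.2% of all symbols had counts. In the GFP-negative libraries 1 and 6 of them had 0 counts, and in GFP-positive replicate 2 it was 6. The 50 genes summed to 734 and 578 CPM in the GFP-negative libraries, against 3006 and 1601 CPM in the GFP-positive libraries. Their median was 3.81 and 5.14 CPM in the GFP-negative libraries, against 0 and 8.18 CPM in the GFP-positive libraries.

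Among 10 receptors in the table, 9 were tested and 0 called, with 3 above 0 and 6 below (median log2 change -0.89). Ramp2, the partner of the adrenomedullin receptor, had 20.5 and 39.7 CPM in the GFP-negative libraries, against 0 and 5.82 CPM in the GFP-positive libraries, without overlap (edgeR adjusted p = 1.0). Nrp2, a co-receptor for VEGF-C and semaphorins, had the opposite order, 1.79 and 5.98 CPM in the GFP-negative libraries, against 207 and 19.2 CPM in the GFP-positive libraries. Acvrl1, the receptor ALK1 that works with endoglin, had 2.0 and 12.5 CPM in the GFP-negative libraries, against 0 and 46.8 CPM in the GFP-positive libraries. Like Eng it was highest in GFP-positive replicate 2 and stood at 0 in GFP-positive replicate 1. Counts in every library but GFP-positive replicate 1 were found for 48.8% of all symbols. GFP-positive replicate 2 was the highest library for 22.3% of tested genes and for 36% of the 50 further endothelial genes. Acvrl1 was picked out after its values were seen.

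Of the 18 listed ligands that act on vessels, 15 were tested and 0 called, with 6 above 0, 9 below and a median log2 change of -0.85. Angptl4, a lipase inhibitor that also acts on vessels, had 4.17 and 3.93 CPM in the GFP-negative libraries, against 1051 and 60.9 CPM in the GFP-positive libraries. Its groups did not overlap, and the log2 change was -7.10 ± 2.38 (SE, n = 2 per group, adjusted p = 1.0 in edgeR). Leaving out GFP-positive replicate 1 gave -3.92. Sema3c, a secreted semaphorin, had 6.51 and 1.62 CPM in the GFP-negative libraries and 0 counts in both GFP-positive libraries. Vegfa, the ligand of KDR, had 27.3 and 4.54 CPM in the GFP-negative libraries, against 77.7 and 4.63 CPM in the GFP-positive libraries, so the libraries of the groups overlapped.

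Of the adhesion and surface genes, 14 were tested and 0 called, with 6 above 0 and 8 below (median log2 change -0.37). Vcam1, a leukocyte adhesion receptor of activated endothelium that macrophages also make, had 2.90 and 37.2 CPM in the GFP-negative libraries, against 1115 and 480 CPM in the GFP-positive libraries (a log2 change of -5.31 ± 1.93, adjusted p = 1.0 in edgeR). Clec14a, a C-type lectin largely confined to endothelium, had 104 and 120 counts in the GFP-negative libraries and 0 in both GFP-positive libraries. Emcn, the endothelial sialomucin endomucin, had 268 and 263 counts in the GFP-negative libraries and likewise 0 in both GFP-positive libraries. The pattern of counts in both GFP-negative and in neither GFP-positive library was met by 6 of the 50 further endothelial genes in the table, or 12.0%, beside 6.92% of all symbols. These were Clec14a, Emcn, Ptgis, Sox17, Selp and Unc5b, a count made after their values were seen. All 6 were low: the highest, Ptgis, the prostacyclin synthase, reached 281 counts or 4.22 CPM in GFP-negative replicate 2.

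Of the transcription factors, 16 were tested and 0 called, with 9 above 0, 7 below and a median log2 change of 0.11. Sox17, a regulator of arterial endothelium, had 15 and 33 counts in the GFP-negative libraries and 0 in both GFP-positive libraries (unadjusted p = 0.022, edgeR adjusted p = 1.0). Lyl1, a factor of blood and endothelial cells, had 0.079 and 0.676 CPM in the GFP-negative libraries, against 39.98 and 13.2 CPM in the GFP-positive libraries. Of the clotting and vessel tone genes, 9 were tested and 0 called, with 5 above 0 and 4 below (median log2 change 0.79). F8, the clotting factor VIII that von Willebrand factor carries in plasma, had 0.185 and 0 CPM in the GFP-negative libraries, against 0 and 1.27 CPM in the GFP-positive libraries, and so did not follow Vwf. Adamts13, the protease that cuts von Willebrand factor, had 2.40 and 0.270 CPM in the GFP-negative libraries, against 0 and 0.282 CPM in the GFP-positive libraries. It was picked out after its values were seen, as was the comparison of both genes with Vwf.

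Partners of the endothelial junction that epithelial cells also use were tested as 10 further genes, of which 0 were called. The fitted change was above 0 for 8 and below 0 for 2, with a median log2 change of 2.23. Ctnnd1, the p120 catenin that binds VE-cadherin and E-cadherin, had 19.2 and 8.98 CPM in the GFP-negative libraries, against 0 and 0.220 CPM in the GFP-positive libraries. Ocln, a tight junction protein, had 50.4 and 3.51 CPM in the GFP-negative libraries, against 0 and 1.36 CPM in the GFP-positive libraries. Of the 7 listed lymphatic endothelial genes 2 are in the table, neither called. Prox1, a lymphatic factor that neuroendocrine tumours also make, had 82.9 and 10.8 CPM in the GFP-negative libraries, against 0.320 and 31.2 CPM in the GFP-positive libraries, and Pdpn (podoplanin) had 4.93 and 13.1 CPM in the GFP-negative libraries, against 115 and 1.55 CPM in the GFP-positive libraries.

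Markers of other cells, among them those that make some of the endothelial genes, differed between the libraries too. The 8 platelet and megakaryocyte markers in the table summed to 22.9 and 323 CPM in the GFP-negative libraries, against 109 and 686 CPM in the GFP-positive libraries. They had 0 calls among 7 tested and a median log2 change of 2.61, while 6 of the 8 were at 0 in GFP-positive replicate 1. Itga2b, the platelet integrin, had 3.15 and 16.2 CPM in the GFP-negative libraries, against 0 and 1.27 CPM in the GFP-positive libraries. Pf4, the chemokine platelet factor 4, had 6.89 and 257 CPM in the GFP-negative libraries, against 109 and 561 CPM in the GFP-positive libraries, and so made most of the sum in 3 of the 4 libraries. Tubb1, the platelet tubulin, had 6.05 and 2.01 CPM in the GFP-negative libraries, against 0 and 0.126 CPM in the GFP-positive libraries, and Nbeal2, a gene of platelet granules, had 0.599 and 4.12 CPM in the GFP-negative and 0 counts in both GFP-positive libraries.

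The 11 macrophage markers in the table summed to 1019 and 13463 CPM in the GFP-negative libraries, against 108703 and 39327 CPM in the GFP-positive libraries, with 3 called lower (Chil3, Lyz2 and Ctss), all 11 below 0 and a median log2 change of -3.10. No macrophage marker was called under upper quartile scaling (median -9.67), in DESeq2's Wald test, in limma-voom, without GFP-positive replicate 1 or in the fit on genes with counts in all 4 libraries. The highest library of the sum is also that of Pecam1, and of the erythroid and the T and NK cell sums below. In that library Chil3 (42910 CPM) and Lyz2 (43154 CPM) made most of the macrophage sum. Adgre1, the macrophage receptor F4/80, had 13.4 and 36.9 CPM in the GFP-negative libraries, against 1629 and 202 CPM in the GFP-positive libraries. Ptprc, which encodes the leukocyte protein CD45, had 22.0 and 18.4 CPM in the GFP-negative libraries, against 0 and 79.9 CPM in the GFP-positive libraries. The B and plasma cell markers, 12 in the table, summed to 3441 and 21553 CPM in the GFP-negative libraries, against 2231 and 6870 CPM in the GFP-positive libraries (0 called, median log2 change 0.62). Igkc, the kappa light chain gene, made most of it, with 2034 and 18102 CPM in the GFP-negative libraries, against 1889.8 and 5238 CPM in the GFP-positive libraries, and 9 of the 12 were at 0 in GFP-positive replicate 1. Jchain, the joining chain of secreted antibodies, had 213 and 1126 CPM in the GFP-negative libraries, against 0 and 202 CPM in the GFP-positive libraries. Cd79a had 23.4 and 47.3 CPM in the GFP-negative libraries, against 0 and 96.7 CPM in the GFP-positive libraries. The 9 T and NK cell markers (0 called) summed to 40.4 and 79.4 CPM in the GFP-negative libraries, against 429 and 211 CPM in the GFP-positive libraries. In GFP-positive replicate 1 Cd2 alone gave that sum, and the other 8, Cd3e and Trac among them, were at 0. The 6 erythroid markers (2 called lower, and 0 to 4 in the alternatives, with 0 in those that called no macrophage marker) summed to 1573 and 5395 CPM in the GFP-negative libraries, against 45562 and 14336 CPM in the GFP-positive libraries. The part of these cells in the Vwf, Pecam1 and Eng values was not tested.

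Of the 8 epithelial markers 0 were called, with 6 above 0, 2 below and a median log2 change of 1.26. The epithelial cadherin gene Cdh1, the counterpart of the unlisted Cdh5, had 111 and 2.49 CPM in the GFP-negative libraries, against 0.107 and 2.82 CPM in the GFP-positive libraries. Its highest library was thus that of Vwf, and of 36.3% of all tested genes. Cldn4, a tight junction claudin of epithelia, had 238 and 43.0 CPM in the GFP-negative libraries, against 0.586 and 17.2 CPM in the GFP-positive libraries, and so was highest in GFP-negative replicate 1, where claudin 5 was low. Cldn7, a further epithelial claudin, had 57.6 and 8.64 CPM in the GFP-negative libraries, against 186 and 16.7 CPM in the GFP-positive libraries, and like Krt19 had a fitted change below 0 (-1.61 for Cldn7 and -0.43 for Krt19). The 14 neuroendocrine markers (0 called, median log2 change 1.55) summed to 5452 and 2189 CPM in the GFP-negative libraries, against 3951 and 1381 CPM in the GFP-positive libraries. Scg2, a granin of secretory granules, had 787 and 84.1 CPM in the GFP-negative libraries, against 0.213 and 33.2 CPM in the GFP-positive libraries. Chga had 494 and 94.1 CPM in the GFP-negative libraries, against 0 and 156 CPM in the GFP-positive libraries. Calca had 2744 and 489 CPM in the GFP-negative libraries, against 3073 and 350 CPM in the GFP-positive libraries.

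Markers of cells that surround vessels were read beside the endothelial genes. The 6 pericyte and smooth muscle markers in the table summed to 17.6 and 6.88 CPM in the GFP-negative libraries, against 0.107 and 18.9 CPM in the GFP-positive libraries (0 called, median log2 change 0.65), and their defining gene Pdgfrb is not among the symbols. Myh11, the smooth muscle myosin, had 163 and 32 counts in the GFP-negative libraries and 0 in both GFP-positive libraries. Higd1b, a pericyte gene, had 0.282 and 0 CPM in the GFP-negative libraries, against 0 and 4.58 CPM in the GFP-positive libraries. The 8 fibroblast markers in the table summed to 71.5 and 138 CPM in the GFP-negative libraries, against 32.3 and 172 CPM in the GFP-positive libraries (0 called, median log2 change 0.09). Col1a1, the collagen gene that defines them, had 4.78 and 2.57 CPM in the GFP-negative libraries, against 0 and 8.24 CPM in the GFP-positive libraries. Inmt, another of the 8, had 0 counts in both GFP-negative libraries, against 32.1 and 12.9 CPM in the GFP-positive libraries. Inmt thus made nearly all of the fibroblast sum in GFP-positive replicate 1. Unlike edgeR, DESeq2's Wald test called 1 of the 7 fibroblast markers tested, lower in the GFP-negative libraries.

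**Figure D4:**
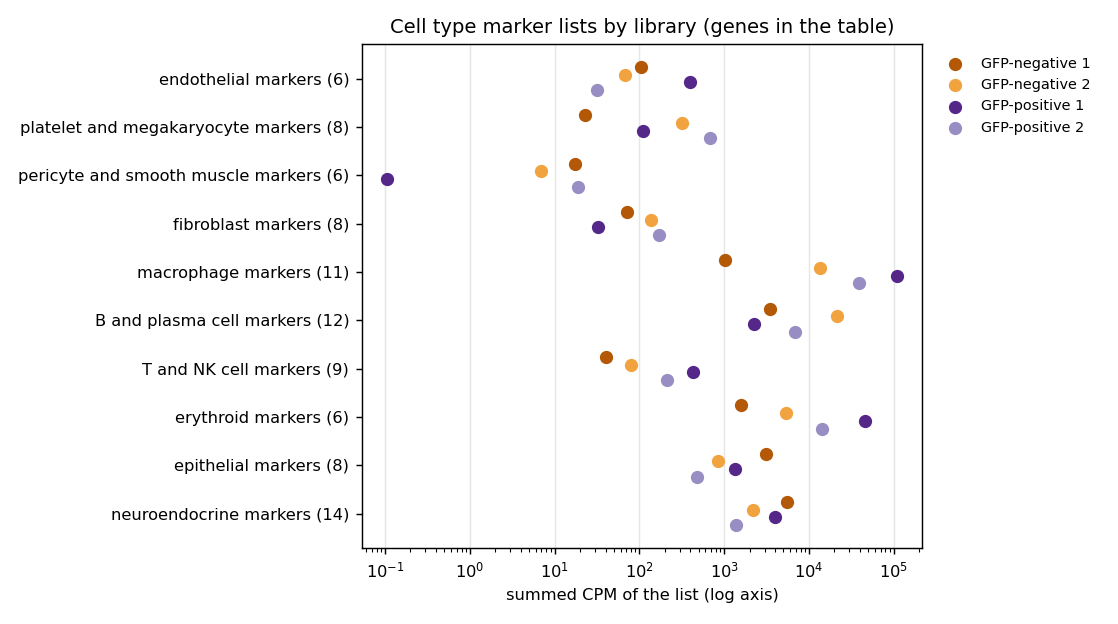
Points show the summed TMM-scaled CPM of each cell type marker list in the 2 GFP-negative and the 2 GFP-positive libraries on a log axis, with the number of listed genes in the table in brackets. The endothelial sum is highest in GFP-positive replicate 1 through Pecam1 alone, the macrophage and erythroid sums are highest in the GFP-positive libraries, and the pericyte sum is lowest in GFP-positive replicate 1.

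The genes most like Vwf and Pecam1 over the 4 libraries, by Euclidean distance of log2(CPM + 1), were not listed endothelial genes. The nearest to Vwf were 2900097C17Rik (distance 0.37), Ighg1, the IgG1 heavy chain of plasma cells (0.85), the kinase gene Dapk2 (0.90), the potassium channel partner Kcnip1 (0.94) and Phldb2 (0.99). Ighg1, for example, had 144 and 14.6 CPM in the GFP-negative libraries and 0 counts in both GFP-positive libraries. The member nearest to Vwf was Kdr, at a distance of 5.07. The nearest to Pecam1 were Creb3l2 (0.95), Maskbp3 (1.20), Nnt, a mitochondrial transhydrogenase (1.29), Slc27a2, a fatty acid transporter (1.34), and Etfbkmt (1.44). Creb3l2, a transcription factor of the secretory pathway, had 4.61 and 1.74 CPM in the GFP-negative libraries, against 252 and 1.58 CPM in the GFP-positive libraries. The member nearest to Pecam1 was again Kdr, at 8.71, and the closest pair of members was Cldn5 and Kdr, at 3.02. These distances rest on 4 libraries and describe the likeness of values only.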

How the data were processed

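Per the file headers, the authors deposited whole-number counts and FPKM (length-scaled) values per gene symbol for the 4 libraries. Per the labels' protocols, oligo(dT)-primed cDNA from very little RNA was extended by template switching and amplified by PCR. That leaves strands unmarked and gives no molecular identifiers, so counting limits understate the error. The submitters' processing notes list cutadapt 1.9, HISAT2 2.2.1, StringTie 2.1.6, DESeq2, edgeR and mm10. The program that counted reads is not given.

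Groups follow the sample descriptions. Counts were fitted with edgeR 4.0.16 in R 4.3.3, by group alone, after filterByExpr (minimum count 10) and TMM, and glmQLFTest p-values were adjusted by Benjamini-Hochberg over 16301 genes (threshold 0.05). The SE is |log2 change| / √F. Folds against a group at 0 use 3 counts per library. In simulated counts for GFP-negative against GFP-positive (dispersion 0.1), 156 of 200 genes changed 4-fold were recovered among 16134 genes, and 200 of 200 changed 16-fold among 16148, with 9 and 22 unchanged genes called. The libraries themselves had a common biological coefficient of variation of 1.92, far more spread than was simulated, so these shares are no measure of power here. Positions are from GENCODE M21 (97.6% of symbols matched).

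Members and lists were chosen with earlier results of these data known. Named are all members, defining markers and, in most lists, the 2 genes of smallest p (or up to 3 called). Also named are the 5 genes nearest to Vwf and Pecam1, genes that neighbour or overlap members, Vegfa and some further list members. Others are marked as picked after their values were seen. Alternatives were a replicate block, other filters and scalings, DESeq2 1.42.0, limma 3.58.1 (voom, and log2 FPKM with pseudocounts of 0.1 and 1), each library left out and, added after seeing the data, only genes with counts in all 4 libraries.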

Additional observations from a re-analysis of the deposited data

How the results depend on the processing

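The number of endothelial genes called was 0 in every fit except DESeq2's Wald test (1, Vwf, with no adjusted p for Kdr) and the edgeR fit without GFP-positive replicate 2 (3: Vwf, Pecam1 and Egfl7), so leaving out 1 library gave 0 to 3. Over the whole table, where the edgeR fit called 16 genes, edgeR with upper quartile scaling called 0 (1150 at an unadjusted p under 0.05), limma-voom 4, DESeq2's Wald test 63, limma on log2(FPKM + 0.1) 42 and the fit on genes with counts in all 4 libraries 5. Leaving out 1 library gave 1 call (without GFP-positive replicate 1) to 7601 calls (without GFP-positive replicate 2), with 59 without GFP-negative replicate 2. In those fits the spread of the group left with 1 library comes from the other group.

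The sign of the log2 change turned for Pecam1 without GFP-positive replicate 1, for Cldn5 under upper quartile scaling (-0.35) and without GFP-negative replicate 2, and for Eng in limma-voom (1.46) and without GFP-positive replicate 2. With 1 library left out, the change ran from -7.30 to 1.19 for Pecam1, from -2.15 to 5.75 for Cldn5 and from -3.55 to 9.07 for Eng. The cause was not tested. Vwf, Kdr and Egfl7 were above 0 in every fit that tested them. With the replicate number as a block, 21 genes and 0 endothelial genes were called, and Eng stood at 1.70. Whether same-numbered libraries share an animal or a sort is not stated in the labels. The correlation of their deviations from the group means was 0.033, which with 2 libraries per group cannot settle it. Over all genes tested, the edgeR median was 0.43 under upper quartile scaling, 0.94 under TMMwsp, 1.12 under DESeq2 size factors and 1.33 under library totals, beside 0.91 under TMM.

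In GFP-positive replicate 1, 4 of the 6 genes had 0 counts and 34.2% of symbols were detected. The limit of 3 counts corresponds to 0.080 CPM there, close to the 0.047 CPM of GFP-positive replicate 2. Icam1 had 0 counts in GFP-positive replicate 1 but 302 CPM in GFP-positive replicate 2, so the zeros are not limited to genes near that level. Their cause was not tested.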
